A study of Capra hircus with 13 samples.

Results

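The subcortical maternal complex (SCMC) genes *NLRP5*, *OOEP*, *TLE6* and *PADI6* were followed in goat oocytes and embryos during the maternal-to-zygotic transition (MZT). The 4 genes were named for their known place in the complex, and 3 of them, *NLRP5*, *TLE6* and *PADI6*, were listed in all 5 tables, which share 18138 genes. No row matched the symbol *OOEP*, so it was not analysed here. The values cover 13 RNA-seq libraries: 3 of untreated MII oocytes (mature oocytes arrested before fertilization), 3 of untreated 4-cell stage embryos, 3 of untreated 8-cell stage embryos, 2 of 8-cell stage embryos that had received a negative control siRNA (NC, though titled WT in the labels), and 2 that had received siRNA against *YTHDF2* (YTHDF2 knockdown). For each injected library, 15 embryos were pooled, all injected as zygotes 8 h post-IVF, the *YTHDF2* siRNA with 5 to 10 pL at 20 µM. The untreated libraries came from 2 earlier studies of the same laboratory, and which library belongs to which study was not stated, so study and stage cannot be told apart. The labels do not say whether replicates of a group came from separate collections, so the p-values measure the spread between these libraries, which may be technical.

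The SCMC is a protein assembly that lies beneath the cortex of the oocyte and of the cells of the cleaving embryo, and is built from mRNAs that the growing oocyte makes. NLRP5, also called MATER, is an NLR family protein, and with OOEP (FLOPED) and TLE6 it forms the core. TLE6 belongs to the Groucho/TLE family of corepressors, and PADI6 is a peptidylarginine deiminase family member needed for the cytoplasmic lattices, fibrous structures that store maternal proteins. In mice, embryos of mothers lacking one of these genes stop in early cleavage. YTHDF2 is a cytoplasmic protein that binds methylated adenosines in mRNA and brings the bound mRNA to the deadenylation machinery, so its knockdown bears on how long maternal mRNAs last.

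The knockdown was made with a mixture of 2 siRNAs, whose antisense strands are shown because they define the treated group. They are written 5′ to 3′ as RNA, with the seed, bases 2 to 8, in capitals, and they were copied from the study's list of oligonucleotides.
s28148: uUGCUAGCaauaucagcccaa
s28147: uGGUCUAUaguauucaugcca

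All values are FPKM, fragments scaled by the length of the exon model and by the total of the library, so levels of different genes can be set side by side within a library. In pooled oocytes or embryos, fewer cells of a type and less RNA per cell cannot be told apart. The untreated libraries held 26853876 to 42495116 fragments, recovered from the steps of the FPKM values, and the depth of the injected libraries is unknown because their values are rounded to 2 decimals. The genes shared by the untreated tables held 64.9 to 66.3% of the totals of the MII libraries and 94.7 to 97.0% of those of the embryo libraries, a difference that moves with every comparison against MII oocytes and whose part in them was not tested beyond the rescaled settings. The summed FPKM of 10 oocyte marker genes was 6413 to 6942 in MII oocytes, against 56.9 to 76.0 for 9 cumulus or granulosa markers and 0.216 to 1.11 for 4 sperm markers. Of the oocyte marker sum, *BTG4* alone held 3551 to 4717 FPKM in MII oocytes. The oocyte marker sum was 10742 to 11999 at the 4-cell and 8092 to 9469 at the 8-cell stage, and its part in the comparisons with MII oocytes was not tested. Replicates correlated at 0.971 to 0.986 (Pearson, log2 values) in MII oocytes and 0.979 to 0.986 in 4-cell stage embryos. In 8-cell stage embryos, replicates 2 and 3 correlated at 0.979, and replicate 1 at 0.921 and 0.944 with them. In replicate 1, 9.07% of the genes were at least 5-fold above the mean of the other 8-cell libraries, against 0.65% in replicate 2 and 0.121% in replicate 3, so the 8-cell fold changes of the 3 genes are given with and without it.

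*NLRP5* was the lowest of the 3 genes in every library. Its FPKM was 0.957, 3.15 and 0.949 in the MII libraries, 0.392, 1.93 and 1.34 in the 4-cell libraries, and 8.70, 0.200 and 0.786 in the 8-cell libraries. These values rest on 21 fragments in 8-cell replicate 2 and 901 in 8-cell replicate 1, over an exon model of 3817 bases. The 3 stages overlapped, and the highest and the lowest value of all 9 libraries were both at the 8-cell stage. By mean the order was 8-cell (3.23 ± 4.74, SD, n = 3), MII (1.69 ± 1.27) and 4-cell (1.22 ± 0.777), and neighbours in this order did not differ beyond their spread.

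*TLE6* was 12.3, 14.2 and 21.1 FPKM in the MII oocytes. In the 4-cell libraries it was 3.06, 10.7 and 4.93 FPKM, and in the 8-cell libraries 50.4, 4.28 and 5.05 FPKM. All 4-cell libraries lay below all MII libraries, as did 8-cell replicates 2 and 3, while 8-cell replicate 1 lay above every MII library. The counts behind these values were 181 to 2815 fragments over 2057 bases. The stage means were 19.9 ± 26.4 FPKM at the 8-cell stage, 15.9 ± 4.66 in MII oocytes and 6.24 ± 3.99 at the 4-cell stage (SD, n = 3 each).

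*PADI6* was 6.98, 30.7 and 7.79 FPKM in the MII libraries. Its 4-cell values were 9.32, 21.8 and 9.89 FPKM, and its 8-cell values 78.5, 8.84 and 13.6 FPKM, from 557 to 4971 fragments over 2333 bases. One library in each stage stood above the rest, and the other 6 libraries lay between 6.98 and 13.6 FPKM. The means were 33.6 ± 38.9 FPKM at the 8-cell stage, 15.2 ± 13.5 in MII oocytes and 13.7 ± 7.04 at the 4-cell stage (SD, n = 3 each), and the ranges of neighbours in this order overlapped.

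**Figure D1:**
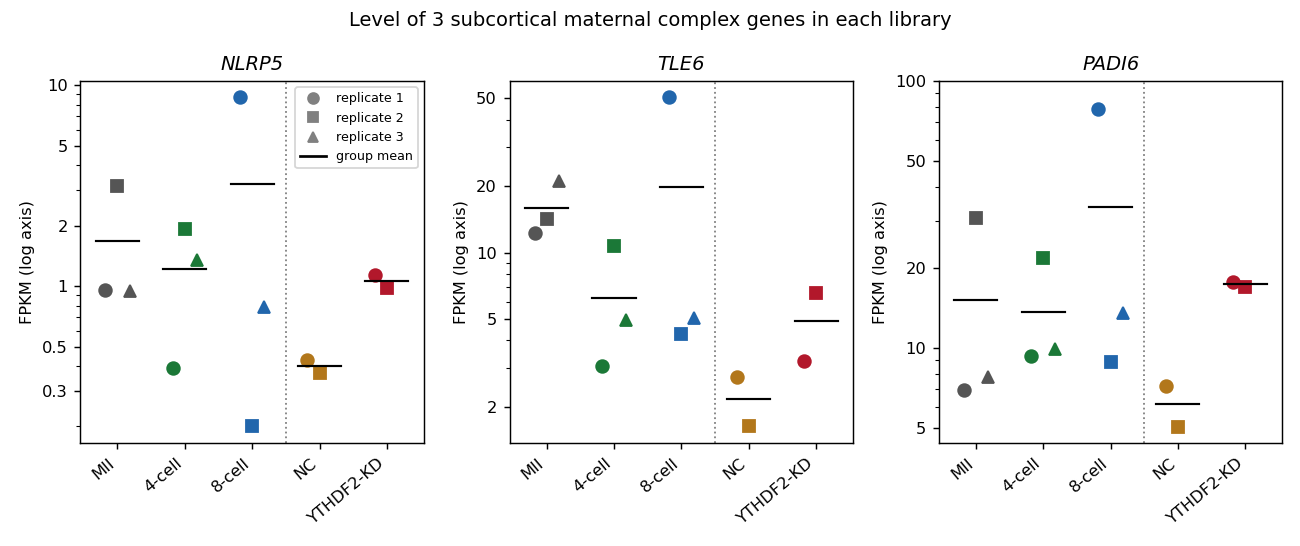
FPKM of *NLRP5*, *TLE6* and *PADI6* in each of the 13 libraries, on a log axis, with 1 point per library, the symbol giving the replicate and the black line the mean of the group; the dotted line separates untreated from injected libraries, whose values were normalized apart. 8-cell replicate 1 is the highest point in all 3 panels (8.70, 50.4 and 78.5 FPKM), and both YTHDF2 knockdown libraries lie above both NC libraries in each panel.

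To ask whether SCMC mRNAs were cleared after fertilization, each stage was compared with the MII oocytes in limma on log2(FPKM + 1), which understates the change of low genes such as *NLRP5*. A gene was called where it changed more than 2-fold with p under 0.05 before adjustment, the rule of the study. The study applied these thresholds in DESeq2, whereas here they were applied to limma, so the calls are not those of the study. The adjusted p (Benjamini-Hochberg over the 9090 genes tested) is given beside them. At the 4-cell stage, 0 of the 3 genes were called, and 0 had an unadjusted p under 0.05 in limma, where 16.7% of all genes tested were called higher and 6.06% lower. The log2 fold change of *TLE6* was -1.33 (SE 0.78, 95% interval -3.09 to 0.43, adjusted p = 0.23). Groups that lay apart downwards, as in *TLE6*, were found for 14.1% of all genes tested. *NLRP5* had a log2 fold change of -0.24 (interval -1.83 to 1.35, adjusted p = 0.83) and *PADI6* one of 0.07 (interval -1.70 to 1.83, adjusted p = 0.96). The intervals of all 3 genes include changes of more than 2-fold, so this fit does not exclude changes of that size. The fit took in all untreated libraries, so its SEs, intervals and p-values at the 4-cell stage also hold the spread of 8-cell replicate 1. In the comparison of 8-cell stage embryos with MII oocytes, the SE of *TLE6* was 0.78 with that library and 0.42 without it.

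The side of the threshold on which *TLE6* fell depended on the scaling and the libraries fitted. The median log2 fold change of all genes tested was 0.29 at the 4-cell stage, and rescaling the libraries by median ratios brought it to 0.06. *TLE6* was then at -1.61 and past the rule (limma adjusted p = 0.10), as it was in voom on the fragments with the shared genes as total (log2 fold change -2.09, adjusted p = 0.092) but not with the library total (-1.53, adjusted p = 0.19). Fitted with only the MII and 4-cell libraries, and so without any 8-cell library, the log2 fold change of -1.33 passed the rule. Its limma adjusted p was then 0.028. No value of this comparison without 8-cell replicate 1 alone is at hand. The part of that library in the missing call of *TLE6* was therefore not tested by itself. *PADI6* and *NLRP5* were not past the rule under any of these settings, voom included, and *PADI6* changed sign, with -0.21 by median ratios. The split of all calls moved as well, from 1518 higher and 551 lower to 616 higher and 1155 lower when the shared genes were given an equal sum in each library.

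At the 8-cell stage against MII oocytes, 0 of the 3 genes were called, and 0 had an unadjusted p under 0.05 in limma or in either voom fit, where 19.8% of all genes tested were called higher and 8.14% lower. The log2 fold change was 0.13 for *NLRP5* (SE 0.71, adjusted p = 0.90), -0.48 for *TLE6* (SE 0.78, adjusted p = 0.66) and 0.79 for *PADI6* (SE 0.79, adjusted p = 0.46). Without 8-cell replicate 1 the values became -0.78 for *NLRP5* (adjusted p = 0.17), -1.54 for *TLE6* (SE 0.42, adjusted p = 0.0158) and -0.13 for *PADI6* (adjusted p = 0.88). *TLE6* then passed the rule as lower, as did 10.8% of all 8777 genes tested in that fit. The sign of *NLRP5* and *PADI6* thus turned with 1 library, and *NLRP5* was also at -0.21 with a pseudocount of 0.1 and at -0.12 by median ratios. The summed FPKM of the cumulus or granulosa markers was 67.6 to 74.9 in 4-cell and 95.6 to 142 in 8-cell stage embryos, and that of the stroma or blood markers 52.8 to 66.7 in MII oocytes, 56.5 to 74.5 at the 4-cell stage and 79.7 to 114 at the 8-cell stage. Their part in these comparisons was not tested.

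Between the 4-cell and the 8-cell stage, 0 of the 3 genes were called, and 0 had an unadjusted p under 0.05 in limma or voom, against 4.55% of all genes tested called higher and 4.28% lower. The log2 fold changes were 0.37 for *NLRP5*, 0.85 for *TLE6* and 0.72 for *PADI6*, with adjusted p of 0.77, 0.53 and 0.60. Without 8-cell replicate 1 all 3 signs turned, to -0.54, -0.22 and -0.19, with adjusted p of 0.50, 0.81 and 0.88.

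**Figure D2:**
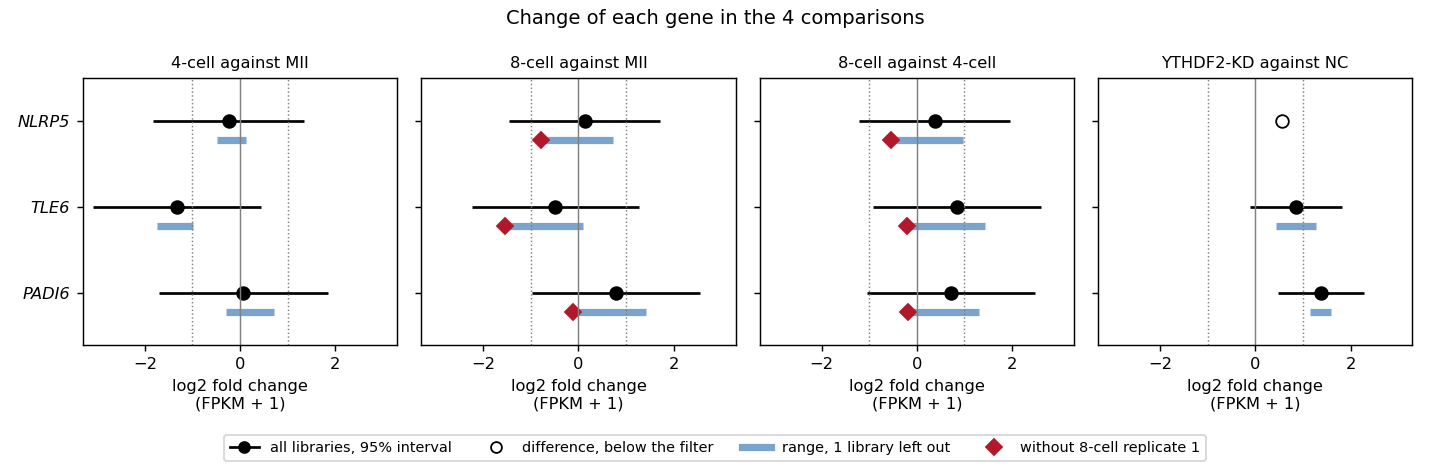
Log2 fold change of FPKM + 1 for each gene in the 4 comparisons, as points with 95% intervals from limma; blue bars span the values when 1 library is left out, red diamonds mark the fits without 8-cell replicate 1, and dotted lines mark 2-fold. Every interval at the stages includes 0, the *TLE6* value at the 8-cell stage moves from -0.48 to -1.54 without that replicate, and the *PADI6* interval in the knockdown, 0.47 to 2.28, lies above 0.

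The rise in 8-cell replicate 1 was shared by the 3 genes. Against the mean of 8-cell replicates 2 and 3, it was 17.6-fold for *NLRP5*, 10.8-fold for *TLE6* and 7.01-fold for *PADI6*, and against the highest MII library 2.76-fold, 2.39-fold and 2.55-fold. Of all genes tested, 44.9% were highest in 8-cell replicate 1 among the 8-cell libraries. At the 4-cell stage, replicate 2 was the highest library for all 3 genes, which held for 52.9% of all genes tested taken singly. In MII oocytes, replicate 2 was highest for *NLRP5* and *PADI6* and replicate 3 for *TLE6*. The deviations of 4-cell replicate 2 and 8-cell replicate 1 from their stage means correlated at 0.51 over all genes. What set these libraries apart was not tested.

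Across the 9 untreated libraries the levels of the 3 genes were correlated on the log2 scale, in 3 pairs compared. *NLRP5* and *PADI6* had a Pearson r of 0.92 (exact permutation p = 0.0034, adjusted 0.0103) and a Spearman rho of 0.68 (exact permutation p = 0.050, adjusted 0.075). *NLRP5* and *TLE6* had an r of 0.82 (exact permutation p = 0.0143, adjusted 0.0214) and a rho of 0.72 (p = 0.037, adjusted 0.075). *TLE6* and *PADI6* had an r of 0.66 (exact permutation p = 0.076, adjusted 0.076) and a rho of 0.30 (p = 0.44, adjusted 0.44). Leaving out the 2 libraries farthest from the median, which included 8-cell replicate 1 in each pair, lowered r to 0.55, 0.52 and 0.13, so the relations rest on those libraries. As deviations from the stage means the pairs correlated at 0.95, 0.89 and 0.79, with 8-cell replicate 1 included. These values therefore do not show a relation within stages apart from that library. The permutations treated the 9 libraries as exchangeable across stages.

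Of 8126 genes with a symbol compared over the 9 libraries, those with patterns most like *NLRP5* were *ADCK1* (r 0.986), *NUDC* (0.976) and *NFATC1* (0.971). *TLE6* was most alike to *RRP9* (r 0.992), *APBA3* (0.989) and *BANP* (0.987), and *PADI6* to *ACAA1* (0.993), *ARPC5L* (0.971) and *NOL4L* (0.969). Each of these 9 genes was highest in 8-cell replicate 1. *BANP*, a nuclear DNA-binding protein, illustrates the pattern of *TLE6*, with 14.8, 13.3 and 23.4 FPKM in the MII, 3.84, 8.74 and 5.38 in the 4-cell, and 68.1, 4.85 and 5.59 in the 8-cell libraries. Without 8-cell replicate 1 the 9 values of r were 0.92 to 0.99. By the same measure, *PADI6* ranked 46 and *TLE6* 539 for *NLRP5*, while *PADI6* ranked 1390 for *TLE6* and *TLE6* 1590 for *PADI6*, a pair whose r fell from 0.66 to 0.21 without 8-cell replicate 1.

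The make-up of the summed FPKM of the 3 genes, which does not change with the scaling of a library, was described by library. *TLE6* held 60.7, 29.6 and 70.7% of the sum in the MII, 24.0, 31.1 and 30.5% in the 4-cell, and 36.6, 32.1 and 26.0% in the 8-cell libraries. *PADI6* held 34.5, 63.9 and 26.1% in the MII oocytes, and 57.0 to 73.0% in the 6 untreated embryo libraries. *TLE6* was thus the larger part in MII replicates 1 and 3 and *PADI6* in all other libraries. *NLRP5* held at most 8.31% in any of the 9 libraries. No test was run on these shares, and the ranges of MII and embryo libraries overlapped for each gene.

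**Figure D3:**
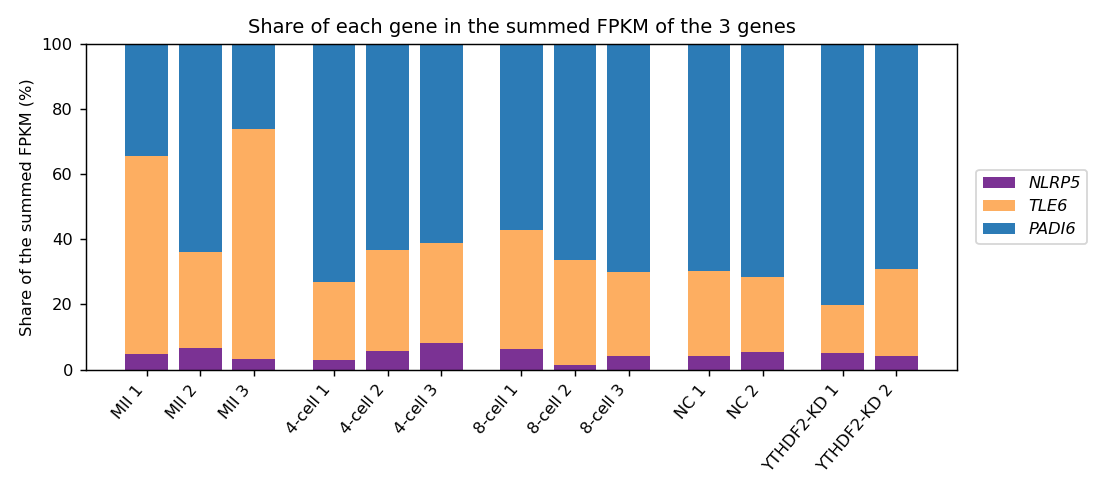
Share of *NLRP5*, *TLE6* and *PADI6* in their summed FPKM, in percent, with 1 bar per library. *TLE6* holds 60.7% and 70.7% in MII replicates 1 and 3, and *PADI6* is the largest part of every embryo library, from 57.0% in 8-cell replicate 1 to 80.3% in YTHDF2 knockdown replicate 1.

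Among genes linked to the SCMC or to the cytoplasmic lattices, 11 of 13 named were listed and 10 had a mean of at least 1 FPKM, the minimum for testing. At the 4-cell stage against MII oocytes, 3 of the 10 rose (*CFL2*, *YWHAE* and *YWHAZ*) and 1 fell (*KHDC3L*), against 16.7% and 6.06% of all genes tested, with a median log2 fold change of 0.37 against 0.29 over all genes tested. *NLRP14* (0.87, adjusted p = 0.0042) and *NLRP2* (0.86, adjusted p = 0.043) were also higher in all 4-cell libraries, at less than 2-fold. At the 8-cell stage, *NLRP2* was called higher too, making 4 of 10 against 19.8% of all genes tested, and *KHDC3L* was again called lower, with a median of 0.49 against 0.37. Without 8-cell replicate 1, the calls were 3 higher and 1 lower, against 20.0% and 10.8% of the 8777 genes of that fit, with a median of 0.28 against 0.26. *NLRP2* (1.11, adjusted p = 0.012) lost its call in that fit (0.86), without MII replicate 1 (0.95), and in the 3 rescaled settings and voom with shared genes as total (0.61 to 0.74). Between the 4-cell and the 8-cell stage the median was 0.34 against 0.07, and 0 of the 10 were called in limma, though *NLRP14* (-0.59) and *YWHAZ* (0.55) had an unadjusted p under 0.05 at less than 2-fold. Without 8-cell replicate 1 that median was 0.11 against -0.04, and no call was made either.

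*KHDC3L*, a KH domain protein of the oocyte that binds to the complex, was the linked gene that fell. Its level was 64.7, 36.4 and 69.9 FPKM in the MII libraries, 16.2, 23.9 and 24.7 in the 4-cell libraries, and 21.2, 18.8 and 26.3 in the 8-cell libraries. Both embryo stages lay wholly below the MII oocytes, and 8-cell replicate 1 did not stand out. Against MII oocytes, 4-cell stage embryos had a log2 fold change of -1.33 (SE 0.28, adjusted p = 0.0065) and 8-cell stage embryos one of -1.29 (SE 0.28, adjusted p = 0.0060), or -1.26 without 8-cell replicate 1 (adjusted p = 0.011). *NLRP14*, an NLR family protein of the germ line, was far higher than any of the 3 SCMC genes, at 278 to 322 FPKM in MII oocytes and 309 to 600 in untreated embryos. *YWHAE* and *YWHAZ*, which encode 14-3-3 adaptor proteins, and *CFL2*, an actin-severing cofilin, rose by 1.61, 1.42 and 2.20 on the log2 scale at the 4-cell stage, and *YWHAZ* was at 0.90 to 0.995, just under 2-fold, in the quantile, equal-sum and voom shared-total settings. *UHRF1*, a chromatin protein, and *CFL1* were at 166 and 307 FPKM in 8-cell replicate 1, against 20.9 and 40.4 for *UHRF1* and 50.5 and 46.1 for *CFL1* in replicates 2 and 3. Over the 9 untreated libraries, *NLRP2* was at 19.0 to 75.8 FPKM, *KPNA6* at 2.01 to 4.59 and *PRKACA*, a catalytic subunit of protein kinase A, at 1.22 to 5.19.

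Relatives of the 3 genes in the NLRP, TLE and PADI families were mostly at low levels, with 14 of 19 listed and 5 tested. *NLRP9*, an oocyte NLRP gene, was the one called of the 5, where 16.7% of all genes tested were called higher in 4-cell and 19.8% in 8-cell stage embryos. It had 38.4, 91.6 and 36.9 FPKM in the MII, 147, 226 and 138 in the 4-cell, and 289, 122 and 199 in the 8-cell libraries. It rose against MII oocytes by 1.69 on the log2 scale in 4-cell stage embryos (adjusted p = 0.012) and by 1.90 in 8-cell stage embryos (adjusted p = 0.0057), or 1.60 without 8-cell replicate 1 (adjusted p = 0.012). *NLRP8* and *NLRP13* were at 6.32 to 74.8 and 10.5 to 49.1 FPKM over the 9 libraries, highest in 8-cell replicate 1, and were not called. *TLE4*, a broadly expressed relative of *TLE6*, was at 7.74 to 19.8 FPKM. Among the relatives of *PADI6*, *PADI3* was at 0.183 to 5.49 FPKM in the untreated libraries, highest in 8-cell replicate 1, and *PADI1*, *PADI2* and *PADI4* did not exceed 0.877 FPKM. *PADI6* was at a higher level than all 4 in each untreated library.

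Of 7 transcription regulators of the oocyte, some of which are known to act upstream of oocyte genes, 6 were listed and tested at the stages. At the 4-cell stage 1 was called higher and 1 lower, against 16.7% and 6.06% of all genes tested, and at the 8-cell stage 2 higher and 1 lower, against 19.8% and 8.14%. *FIGLA* fell at both stages (log2 fold change -1.47, adjusted p = 0.044, and -1.43, adjusted p = 0.042), and its MII values were 4.88, 16.8 and 3.46 FPKM. Without MII replicate 2, the values of *FIGLA* were -0.87 and -0.83 and no longer past the rule, and the 8-cell call was also lost without 8-cell replicate 3 (-1.19). *TBPL2*, an oocyte TATA-binding protein relative, rose at both stages by 1.52 on the log2 scale (adjusted p = 0.0019 and 0.0014), and *TAF4B* by 1.14 at the 8-cell stage (adjusted p = 0.0032), under 2-fold in 4 of the rescaled or voom settings (0.72 to 0.79). Without 8-cell replicate 1 the 8-cell values were -1.49 for *FIGLA*, 1.59 for *TBPL2* and 1.01 for *TAF4B*, all past the rule. *NOBOX* was at 22.9 FPKM in 8-cell replicate 1, against 0.931 and 1.72 in replicates 2 and 3.

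In the knockdown, the targeted gene was checked first. *YTHDF2* was 111.54 and 158.61 FPKM in the NC embryos and 8.07 and 4.47 in the YTHDF2 knockdown embryos, a log2 fold change of -4.25 (SE 0.43, adjusted p = 3.7e-04). Both libraries labelled as knockdown were therefore below both NC libraries.

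All 3 SCMC genes were higher in both YTHDF2 knockdown libraries than in both NC libraries, an arrangement that 30.3% of all 11004 genes tested showed. *PADI6* was 7.23 and 5.06 FPKM in NC embryos and 17.72 and 16.94 in knockdown embryos, 2.82-fold by the means (6.15 ± 1.53 and 17.3 ± 0.552 FPKM, SD, n = 2). Its log2 fold change was 1.38 (SE 0.42, 95% interval 0.47 to 2.28, limma adjusted p = 0.058), which passed the study's thresholds in limma but not an adjusted p of 0.05. *TLE6* was 2.72 and 1.63 FPKM in NC embryos and 3.23 and 6.54 in knockdown embryos, with a log2 fold change of 0.85 (SE 0.45, interval -0.11 to 1.82, adjusted p = 0.22), and was not called. *NLRP5* was 0.43 and 0.37 FPKM against 1.13 and 0.98, below the minimum mean of 1 FPKM, and its difference of 0.55 on the log2(FPKM + 1) scale had an adjusted p of 0.31 in a limma fit with no minimum. Of the 2 genes tested, 1 was thus called higher, against 9.48% of all genes tested, and 0 lower, against 15.3%.

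The *PADI6* call held when each library was left out, with log2 fold changes of 1.15 to 1.60, though its adjusted p ranged from 0.040 to 0.27 over all settings. For *TLE6*, leaving out knockdown replicate 1 gave 1.27, past the rule (adjusted p = 0.13), and the lowest value with a library left out was 0.44. Within each library *PADI6* stood at percentile 70.6 and 68.3 of the shared genes in NC embryos and 82.2 and 82.4 in knockdown embryos. *TLE6* stood at 56.1 and 52.5 in NC and 59.3 and 71.0 in knockdown embryos. *NLRP5* stood at 31.3 and 34.0 in NC and 45.6 and 46.4 in knockdown embryos. The share of *PADI6* in the sum of the 3 genes was 69.7 and 71.7% in NC and 80.3 and 69.3% in knockdown embryos, so the ranges overlapped.

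All 10 oocyte markers listed were higher in both knockdown libraries than in both NC libraries, an arrangement of 30.3% of all genes tested. By the rule of the study, 6 of the 10 were called higher against 9.48% of all genes tested: *MOS* (adjusted p = 0.047), *NPM2* (0.054), *ZP2* (0.060), *ZP3* (0.072), *ZAR1* (0.096) and *ZP4* (0.15), so 1 of them was under an adjusted p of 0.05. The summed FPKM of the 10 markers was 1637 to 2751 in NC and 3461 to 5441 in knockdown embryos. Of this, 1 gene, *BTG4*, held 1077 to 1830 FPKM in NC and 2258 to 3335 in knockdown embryos, and it was not called. The 9 cumulus or granulosa markers listed summed to 43.1 to 50.3 FPKM in NC and 81.4 to 90.6 in knockdown embryos. All 4 that were tested were higher in both knockdown libraries, again against 30.3%, and 2 of the 4 were called higher against 9.48% of all genes tested, *HAS2* (1.0007, adjusted p = 0.13) and *TNFAIP6* (1.09, adjusted p = 0.13). The other markers of this list were under the minimum of 1 FPKM and did not lie apart. *INHA* and *FSHR* were at 0 FPKM in all injected libraries. *AMH* was at 0.38 and 0.03 FPKM in NC and 0.39 and 0.22 in knockdown embryos. *CYP19A1* was at 0.25 and 0.28 against 0.25 and 0.37, and *PTX3* at 0.17 and 0 against 0.09 and 0. The 5 stroma or blood markers summed to 25.5 to 28.8 and 36.1 to 45.4 FPKM, with *DCN* higher (means 16.2 and 33.4 FPKM) and *COL1A2* lower (8.15 and 4.15 FPKM) in both knockdown libraries, neither called, and the 4 sperm markers to 12.3 to 12.8 and 3.54 to 25.2 FPKM. The part of other cell types in the *PADI6* result was not tested.

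*KHDC3L* was 63.71 and 40.06 FPKM in NC embryos and 153.81 and 186.42 in knockdown embryos. It rose by 1.72 on the log2 scale (SE 0.40, limma adjusted p = 0.022), or by 1.40 to 2.05 with 1 library left out. Under other processing its limma adjusted p reached 0.17. Both NC values lay within its MII range of 36.4 to 69.9 FPKM and above its untreated 8-cell range of 18.8 to 26.3. The fall from MII oocytes was thus not seen in the NC embryos, though the 2 experiments were normalized apart and this was not tested. *NLRP14* rose by 1.49 (limma adjusted p = 0.045), or by 1.07 to 1.90 with 1 library left out, from 30.55 and 29.5 FPKM to 64.02 and 115.05. *KPNA6*, an importin of the nuclear transport machinery, fell by 1.24 on the log2 scale (adjusted p = 0.087), and no longer passed the rule without NC replicate 2 (-1.04) or without knockdown replicate 2 (-0.77). Of the 10 linked genes tested, 2 were called higher and 1 lower, against 9.48% and 15.3% of all genes tested. In both knockdown libraries 6 were higher, as were 30.3% of all genes tested. *KPNA6* and *CFL1* were lower in both, for which no share over all genes is at hand, so nothing is read from it. The median of the 10 was 0.45 on the log2 scale against 0.0054 over all genes tested.

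Of the relatives, 1 of 5 tested was called, *NLRP9*, at 20.32 and 18.43 FPKM in NC and 36.93 and 71.38 in knockdown embryos (log2 fold change 1.36, adjusted p = 0.065), and at 0.90 without knockdown replicate 2. Over all genes tested 9.48% were called higher, and the median of the relatives was 0.44 against 0.0054. Of the oocyte transcription regulators, 3 of 5 tested were called higher, against 9.48% of all genes tested. They were *TBPL2* (1.33, adjusted p = 0.072), *NOBOX* (1.29, adjusted p = 0.065) and *FIGLA* (1.19, adjusted p = 0.087), and the median of the 5 was 1.19. *TBPL2* lost its call without knockdown replicate 2 (0.97, adjusted p = 0.37) and *NOBOX* without knockdown replicate 1 (1.19, adjusted p = 0.17), and *FIGLA* was under the minimum of 1 FPKM, and so not tested, without knockdown replicate 2. *NOBOX* was 1.19 and 0.97 FPKM in NC and 4.48 and 3.74 in knockdown embryos. *LHX8* (0.84), also higher in both knockdown libraries, and *TAF4B* (-0.16) were not called.

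**Figure D4:**
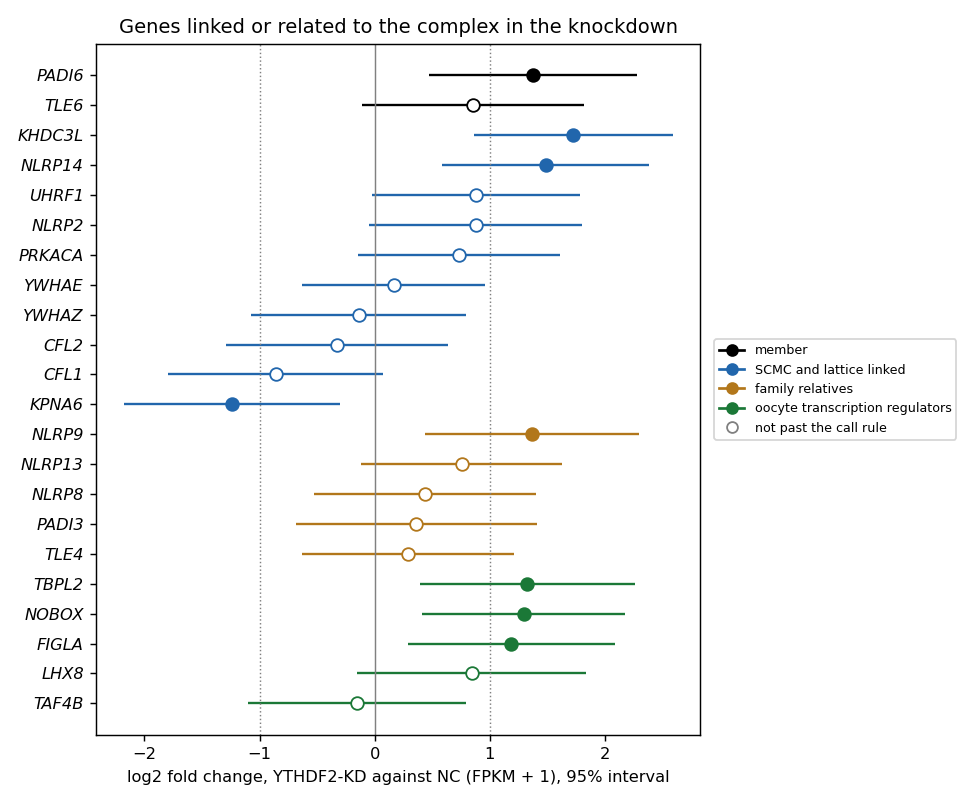
Log2 fold change of FPKM + 1 in YTHDF2 knockdown against NC embryos, with 95% intervals from limma, for 2 SCMC genes and the tested genes of 3 lists; filled points passed the call rule of the study. *PADI6* (1.38), *KHDC3L* (1.72), *NLRP14* (1.49), *NLRP9* (1.36), *TBPL2* (1.33), *NOBOX* (1.29) and *FIGLA* (1.19) are filled to the right of 0 and *KPNA6* (-1.24) to the left.

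Set beside the untreated 8-cell stage embryos, the NC embryos had lower values in 2 of the 3 genes. *PADI6* was 7.23 and 5.06 FPKM in NC embryos against 8.84 to 78.5 in untreated ones, and *TLE6* 2.72 and 1.63 against 4.28 to 50.4, while *NLRP5* at 0.43 and 0.37 lay within the untreated range. Other genes differed between the 2 experiments in both directions. *YTHDF2* was 111.54 and 158.61 FPKM in NC embryos against 10.8 to 16.7 in untreated 8-cell stage embryos. *KPNA6* was 47.88 and 63.7 against 3.45 to 4.59, while *NLRP14* was 30.55 and 29.5 against 309 to 444. In knockdown embryos *YTHDF2*, at 8.07 and 4.47, lay below its untreated 8-cell range. The injected and untreated tables were normalized apart, so these levels are given with no test.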

How the data were processed

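The values came from 13 RNA-seq libraries. The study's methods name Smart-seq2 for its embryos and do not state the library method of the untreated libraries, which came from earlier studies. Per the study's methods, HISAT2 placed the reads on goat assembly ARS1 and HTSeq counted them, and the authors deposited FPKM values, 1 column per library; all columns of values were used. Fragments of the untreated libraries were recovered from the FPKM steps (tolerance 0.03 fragments) for 17917 of 17918 shared genes above 0. Genes averaging 1 FPKM or more in the fitted libraries were tested by limma 3.58.1 (R 4.3.3, eBayes with trend) after taking log2(FPKM + 1), the 9 untreated libraries in 1 fit and the 4 injected libraries in another, normalized apart and never tested together. The script was checked on simulated data. Named genes are all 4 SCMC genes, *YTHDF2*, the called genes of 3 lists or those above a member in level, and the 3 genes most alike to each member. Some called marker genes were named outside this rule, after their values were seen. So were *AMH*, *INHA*, *FSHR*, *CYP19A1*, *PTX3*, *BTG4*, *DCN*, *COL1A2*, *PADI1* and *PADI4*. The members and lists were chosen with earlier results of these data known. Alternatives were pseudocount, minimum level, scaling, replicate block, fits of 2 groups and leaving out each library, and 3 settings added after seeing the data (voom on fragments with either total, and a crossed block). Gene names were taken as deposited. Python 3.11.15 with scipy 1.17.1 was used for the rest.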

Additional observations from a re-analysis of the deposited data

How the results depend on the processing

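The scaling of the untreated libraries moved the calls against MII oocytes most. At the 4-cell stage, genes called higher were 616 with an equal sum over shared genes, 934 by median ratios, 879 by quantiles and 814 by voom on fragments with shared genes as total, and genes called lower were 1155, 897, 905 and 1501 in the same order, or 322 with a mean of at least 5 FPKM, where fewer genes were tested (5.86% called lower against 6.06%). At the 8-cell stage against MII they were 1062, 1139, 1093 and 1109 higher and 1196, 1158, 1238 and 1606 lower. With a mean of at least 5 FPKM, 232 genes were called higher at the 8-cell against the 4-cell stage and 1114 lower in the knockdown, again of fewer genes tested (4.22% against 4.55% and 17.1% against 15.3%). *TLE6* at the 4-cell stage passed the rule by median ratios (-1.61), quantiles (-1.58), equal sum (-1.81), voom with shared genes as total (-2.09) and the fit of 2 groups (-1.33). *PADI6* at the 4-cell stage turned negative by the first 4 of these (-0.21, -0.25, -0.43 and -0.46), and *NLRP5* at the 8-cell stage against MII at a pseudocount of 0.1 (-0.21), by median ratios (-0.12), quantiles (-0.13), equal sum (-0.11) and voom with shared genes (-0.87) or the library (-0.34) as total.

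With 1 library left out, log2 fold changes at the 4-cell stage against MII ranged from -0.48 to 0.12 for *NLRP5*, -1.75 to -0.98 for *TLE6* and -0.30 to 0.71 for *PADI6*. At the 8-cell stage against MII the ranges were -0.78 to 0.73, -1.54 to 0.10 and -0.13 to 1.43 for the same genes, and against the 4-cell stage -0.54 to 0.97, -0.22 to 1.43 and -0.19 to 1.31. In the knockdown they were 0.44 to 1.27 for *TLE6* and 1.15 to 1.60 for *PADI6*. Genes called ranged from 1341 to 1749 higher and 442 to 651 lower at the 4-cell stage, 1650 to 2059 and 654 to 948 at the 8-cell stage against MII, 286 to 818 and 354 to 479 at the 8-cell against the 4-cell stage, and 545 to 1331 and 1134 to 2085 in the knockdown.

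In the untreated libraries the replicate numbers showed no pairing: deviations of same-numbered libraries correlated at -0.51 to 0.20, and those of other libraries at -0.37 to 0.51. In the injected libraries the values were -0.15 for the same number and 0.15 for crossed numbers. With 2 libraries per group these are 1 value with either sign, which cannot decide on pairing. With a replicate block the calls were 1516 higher and 548 lower (4-cell against MII), 1770 and 739 (8-cell against MII), 392 and 392 (8-cell against 4-cell) and 1014 and 1674 (knockdown), and none of the members' calls changed. With crossed numbers in the knockdown the calls were 1063 and 1747. By adjusted p they were 227 higher and 651 lower without a block, 78 and 383 with the block and 688 and 1378 with crossed numbers. The cause of these shifts was not tested. The floor, set at 3 fragments, was 0.0185 to 0.0543 FPKM for the 3 genes, below every value of these genes in the untreated libraries.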
